A study of Mus musculus with 4 samples.

Results

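Transcripts of 8 genes that call, guide and arm neutrophils were counted cell by cell in the distal jejunum, in 4 mice, 18.5 h after small intestinal ischemia/reperfusion (I/R) injury. The genes were chosen by symbol and make up 8 of the 32286 features of the count matrices: the chemokines *Cxcl1*, *Cxcl2*, *Cxcl3* and *Cxcl5*, the receptors *Cxcr2* and *Csf3r*, and the alarmins *S100a8* and *S100a9*. The 2 control mice carried Foxc1 fl/fl;Foxc2 fl/fl without Cre, and the 2 EC-Foxc-DKO mice carried Cdh5-CreERT2;Foxc1 fl/fl;Foxc2 fl/fl. All 4 mice therefore shared the floxed alleles and the I/R injury. Per the study's methods, tamoxifen was given by gavage to adult male mice to induce the deletion. The *Cdh5* promoter drives Cre in blood and lymphatic endothelial cells, so the deletion is aimed at vessels and not at the leukocytes described below. The strain background is not given in the sources used here, and no uninjured mouse was analysed here. Each mouse was 1 library and 1 replicate.

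Neutrophils leave the blood along gradients of CXC chemokines. CXCL1, CXCL2, CXCL3 and CXCL5 all bind CXCR2, a G protein-coupled receptor on neutrophils, and macrophages, stromal cells and neutrophils themselves can make them. CSF3R is the receptor of G-CSF, the growth factor that drives neutrophil production and release from the bone marrow. S100A8 and S100A9 pair into calprotectin, the most abundant protein of the neutrophil cytosol, which binds metal ions and is released at sites of injury. In the reperfused gut, neutrophils are early arrivals, and the genes of the 4 ligands are known targets of NF-kB.

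The 4 chemokine genes lie close together on chromosome 5 of the GRCm38 build, all on the + strand: *Cxcl5* at chr5:90759360-90761624, *Cxcl3* at chr5:90786103-90789600, *Cxcl1* at chr5:90891241-90893115 and *Cxcl2* at chr5:90903871-90905938. *S100a8* (chr3:90668978-90670035, + strand) and *S100a9* (chr3:90692632-90695721, - strand) are neighbors on chromosome 3. *Cxcr2* lies at chr1:74153989-74161246 and *Csf3r* at chr4:126024550-126044440, both on the + strand.

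RefSeq promoters of GRCm38.p6, from 250 bases before to 50 bases after the start, were at hand for 7 of the 8 genes, not for *Cxcl5*. The promoters of *Cxcl1*, *Cxcl2* and *Cxcl3*, the 3 ligands with more than a few UMIs in these cells, carried the same NF-kB site, beginning 71, 97 and 73 bases before the start. They are shown from 150 to 31 bases before the start, 5′ to 3′ on the + strand (chr5:90891095-90891214, chr5:90903749-90903868 and chr5:90785951-90786070), with the shared site in capitals.
Cxcl1: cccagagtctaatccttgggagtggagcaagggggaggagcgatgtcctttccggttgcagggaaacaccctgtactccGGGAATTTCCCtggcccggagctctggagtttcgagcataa
Cxcl2: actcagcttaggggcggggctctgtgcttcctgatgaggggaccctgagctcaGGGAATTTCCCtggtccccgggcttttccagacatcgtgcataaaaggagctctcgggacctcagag
Cxcl3: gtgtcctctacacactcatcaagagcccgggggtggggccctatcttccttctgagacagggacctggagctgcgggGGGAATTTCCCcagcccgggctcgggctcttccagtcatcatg
The NF-kB consensus was searched on both strands and occurred in 2779 of 32851 promoters of this length (8.46%), and the exact letters GGGAATTTCC in 29 of them (0.0883%). In each of the 3 ligand promoters the consensus gave 2 overlapping matches over both strands. The *Csf3r* promoter held 1 match of the consensus, beginning 129 bases before the start, and those of *Cxcr2*, *S100a8* and *S100a9* held no such letters. The AP-1 letters TGANTCA, found in 7.81% of all promoters, occurred in none of the 7. These matches describe the letters of the windows only.

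Of 22679 barcodes, 5615 (24.8%) had at most 10% of their UMIs on mitochondrial genes and were kept. A UMI (unique molecular identifier) marks 1 captured transcript, counted once at its 3′ end and not scaled by gene length. The libraries kept 1446 cells in control replicate 1, 348 in control replicate 2, 2742 in EC-Foxc-DKO replicate 1 and 1079 in EC-Foxc-DKO replicate 2, with medians of 4254.5 to 19871 UMIs per cell. Control replicate 2 stood apart: its median barcode held 54.0% mitochondrial UMIs, against at most 25.8% in the others. *Foxc1*, a targeted gene, had 9 and 11 UMIs in the controls against 6 and 3 with the deletion, *Foxc2* had 0 UMIs in all 4, and Cre had 3 UMIs in each EC-Foxc-DKO mouse and 0 in the controls. These counts are too low to measure the deletion. Across libraries, 51 barcodes occurred more than once, and 24 kept cells carried one of them.

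Cells were clustered without the 8 genes, and clusters were named from fixed markers (hence "neutrophil-like"). The neutrophil-like cluster held 56 cells: 30 in control replicate 1, 0 in control replicate 2, 20 in EC-Foxc-DKO replicate 1 and 6 in EC-Foxc-DKO replicate 2. As shares of kept cells these are 2.07% (95% exact binomial interval 1.40 to 2.95), 0 of 348 cells (a count that permits up to 0.862%), 0.729% (0.446 to 1.12) and 0.556% (0.204 to 1.21). Intervals and limits on shares cover counting error only. The numbers also depend on the mitochondrial limit. At a limit of 20% the cluster held 34, 1, 22 and 31 cells in the same order of mice. Barcodes of control replicate 2 above 10% held 16 UMIs of *Cxcr2*, so its count of 0 does not show that this mouse lacked neutrophils. All 16 neutrophil markers were present in the cluster, led by *G0s2* and *Retnlg*, and 15 were above the detection rule. The macrophage-like cells, with all 17 markers of macrophages and monocytes detected, numbered 71, 36, 93 and 95 in the same order of mice. A further 85 macrophage-like cells of low depth (median 1024 UMIs) were kept apart. With so few neutrophil-like cells, 2 mice had the 10 cells needed for a mean over mice.

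Neutrophil-like and macrophage-like cells carried most transcripts of 7 of the 8 genes, not of *Cxcl5*, with *Cxcl2* in both, *Cxcl1* and *Cxcl3* mostly in macrophage-like cells, and *Cxcr2*, *S100a8* and *S100a9* almost wholly in neutrophil-like cells. Kept cells held 16388 UMIs of *Cxcl2*, 8593 of *S100a9*, 5168 of *S100a8*, 2834 of *Cxcl3*, 457 of *Cxcl1*, 328 of *Csf3r*, 244 of *Cxcr2* and 12 of *Cxcl5*. Neutrophil-like cells were 0.997% of kept cells, and macrophage-like cells of both depths 6.77%.

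**Figure D1:**
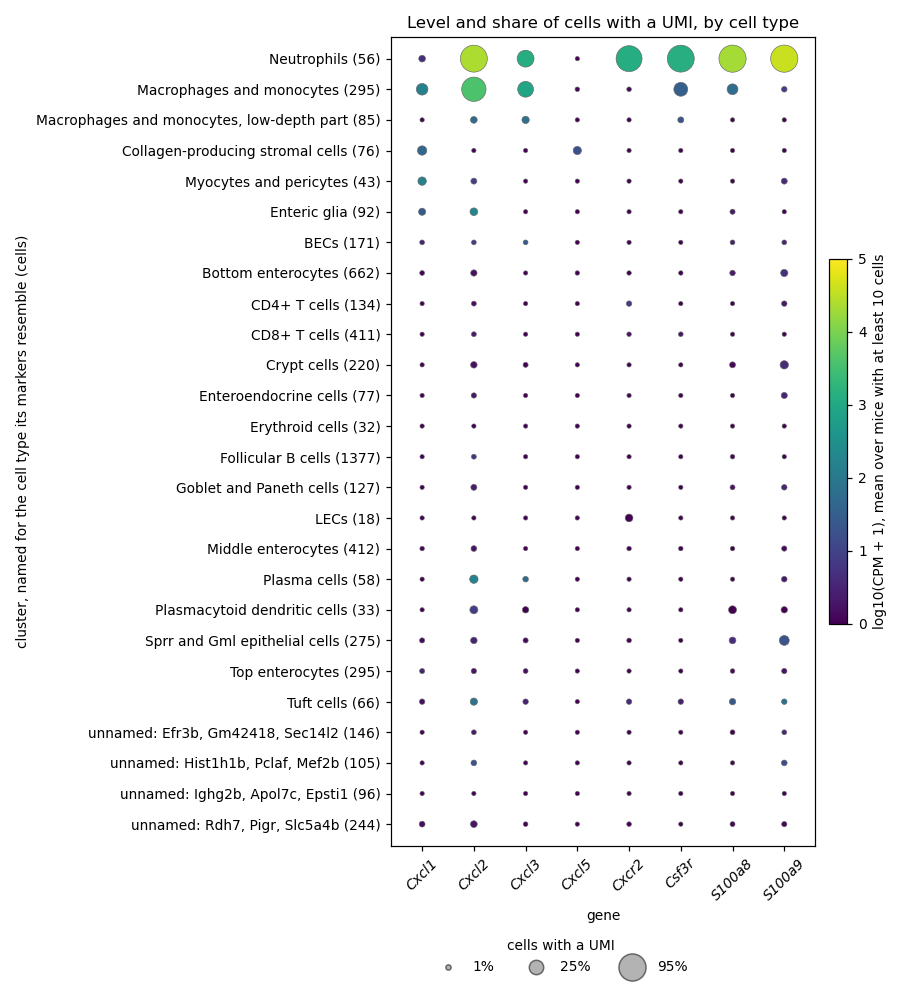
Each row is a cluster, named for the cell type its markers resemble, with its number of cells, and each column is 1 of the 8 genes. Color gives log10(CPM + 1), the mean over mice with at least 10 cells (CPM, UMIs of the gene per 1000000 UMIs of those cells), and dot area grows with the share of cells that held a UMI. The large bright dots lie in the neutrophil and macrophage rows, and *Cxcl5* shows its visible dot in collagen-producing stromal cells.

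Among the ligands, *Cxcl2* was the most abundant, and neutrophil-like cells held it at the highest level of any cluster. Levels are given as CPM of the UMIs summed per mouse and cluster. In neutrophil-like cells *Cxcl2* reached 21576 CPM in control replicate 1, 26486 in EC-Foxc-DKO replicate 1 and 21167 in EC-Foxc-DKO replicate 2. The 3 mice lay within a narrow range, and the single-cell medians of 17659.6, 18424 and 23437 CPM show that the level was not owed to a few cells alone. The cell with the most held 754 of 2676, 279 of 1353 and 115 of 350 UMIs. Without cells rich in enterocyte or erythroid markers, control replicate 1 stood at 35511 CPM and the other 2 mice were unchanged, so the narrow range depends on those cells. The mean over the 2 mice with 10 or more cells was 24031 ± 3472 CPM (SD, n = 2).

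Macrophage-like cells came next for *Cxcl2*, at 4838 and 1929 CPM in the controls and 2439 and 5949.5 CPM in the EC-Foxc-DKO mice. Their mean was 3789 ± 1919 CPM (SD, n = 4), and the ranges of both clusters over mice did not overlap. A UMI of *Cxcl2* was present in 94.6% of neutrophil-like and 76.9% of macrophage-like cells, and after thinning every cell to 1000 UMIs in 93.8% and 66.4%. Follicular B-like cells, which should lack the gene, had one in 0.726% of 1377 cells at a median depth of 3245 UMIs, against medians of 2622.5 UMIs in neutrophil-like and 9524 in macrophage-like cells. The third place, enteric glia-like cells at 210.2 ± 388 CPM (SD, n = 4), rested on 1 cell of control replicate 2 that held 79 *Cxcl2* UMIs with 319 UMIs of macrophage markers. The plasma cell-like level, 168 ± 115 CPM (SD, n = 2), rested mostly on 2 cells with 104 and 331 UMIs of macrophage markers.

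*Cxcl3*, whose product shares the receptor of CXCL1 and CXCL2, varied widely between mice. In macrophage-like cells it stood at 976 CPM in control replicate 1 (870 UMIs), 5.84 in control replicate 2 (2 UMIs), 143 in EC-Foxc-DKO replicate 1 (171 UMIs) and 2301 in EC-Foxc-DKO replicate 2 (1430 UMIs). Each genotype thus had a high and a low mouse, and the groups overlapped. In neutrophil-like cells *Cxcl3* was at 1008, 1468 and 5685 CPM in control replicate 1, EC-Foxc-DKO replicate 1 and EC-Foxc-DKO replicate 2, and in the last mouse 92 of its 94 UMIs came from 1 cell. The means, 1238 ± 326 CPM (SD, n = 2) in neutrophil-like and 857 ± 1054 CPM (SD, n = 4) in macrophage-like cells, do not differ beyond their spread. The share of cells with a *Cxcl3* UMI was 35.7% and 30.8%, and 28.7% and 20.6% after thinning, against 0.0726% of follicular B-like cells.

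*Cxcl1* was at low level and lay mostly in macrophage-like cells. Macrophage-like cells held it at 57.2 and 146 CPM in the controls and 54.5 and 312 CPM in the EC-Foxc-DKO mice, from 51, 50, 65 and 194 UMIs. The cell with the most held 24, 35, 16 and 36 of these UMIs, in the same order of mice. EC-Foxc-DKO replicate 2 was the highest and EC-Foxc-DKO replicate 1 the lowest, so the genotypes overlapped. The mean was 142 ± 121 CPM (SD, n = 4). Collagen-producing stromal-like cells, the fibroblast group, held *Cxcl1* at 53.1 CPM (control replicate 2) and 39.1 CPM (EC-Foxc-DKO replicate 1), just under the range of the macrophage-like cells. In the first of these mice 10 of its 11 UMIs came from 1 cell. In the second, 6 UMIs came from 1 cell that held 49 UMIs of macrophage markers. By its score that cell was a likely doublet (a barcode of mixed cells). The top of the order, myocyte- and pericyte-like cells at 167 ± 229 CPM (SD, n = 2), rested on 22 UMIs in 1 cell. That cell was also a likely doublet by its score, but it held 0 UMIs of neutrophil markers and 0 of macrophage markers. The label means only that a score was among the highest of its library. In neutrophil-like cells *Cxcl1* had 1, 0 and 8 UMIs in the 3 mice. The 8, all in 1 cell of EC-Foxc-DKO replicate 2, made 484 CPM, above the macrophage-like cells of that mouse. At the 20% limit its neutrophil-like cells held 18 UMIs, or 275 CPM, beside 250 CPM in its macrophage-like cells. Few UMIs thus set the level of *Cxcl1* in this cluster. Of follicular B-like cells 0 of 1377 held *Cxcl1*, a count that permits a share up to 0.218%.

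*Cxcl5*, in other tissues a product of epithelial and stromal cells, was barely detected. Of its 12 UMIs in kept cells, 10 lay in 5 of the 43 collagen-producing stromal-like cells of EC-Foxc-DKO replicate 1, where its level was 32.6 CPM. The 30 such cells of control replicate 2 held 0 UMIs. Neutrophil-like cells held 0 UMIs in 56 cells, a count that permits up to 5.36% of cells with a UMI and sets no limit on cells with a low level, and macrophage-like cells held 1 UMI. With 12 UMIs in all, a difference between genotypes or cell types other than this cluster was not detectable at this depth.

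Blood endothelial cells (BECs), the cells in which the deletion acts, held few ligand transcripts. In 171 BEC-like cells *Cxcl1* had 1 UMI and *Cxcl2* had 3 UMIs, all 3 in 1 cell. *Cxcl3* had 15 UMIs, all in 1 cell of control replicate 1 that also held 578 UMIs of macrophage markers. The 18 lymphatic endothelial (LEC)-like cells held 0 UMIs of the 4 ligands.

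**Figure D2:**
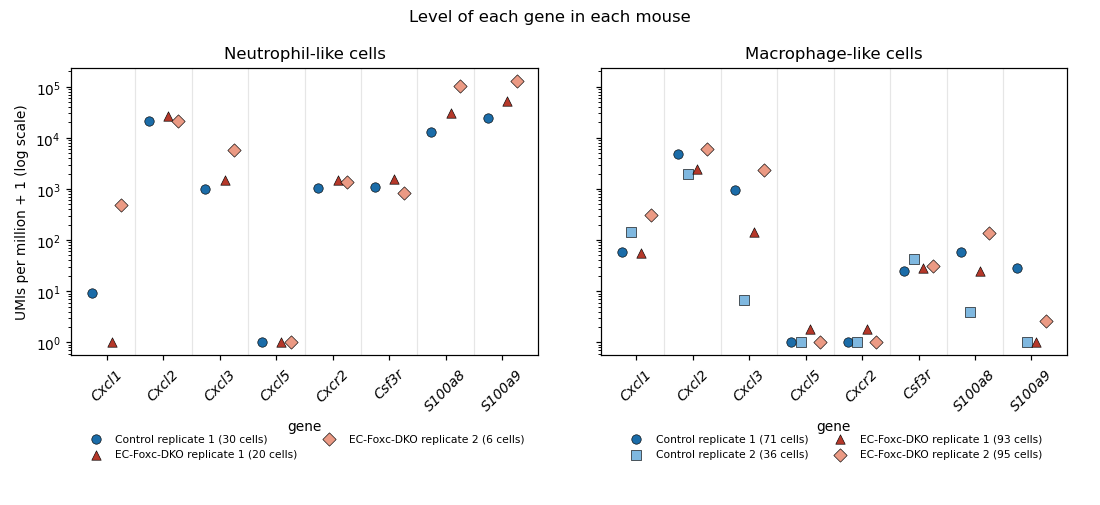
CPM + 1 on a log axis for each of the 8 genes, in neutrophil-like cells (left) and macrophage-like cells (right), with 1 point per mouse. Points at 1 are mice with 0 UMIs, and control replicate 2 has no neutrophil-like cell. *Cxcl2*, *Cxcr2* and *Csf3r* lie close together over the 3 mice with neutrophil-like cells, and *Cxcl3* in macrophage-like cells spreads from 5.84 to 2301 CPM.

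Among the receivers, *Cxcr2* marked neutrophil-like cells almost alone. It stood at 1064 CPM in control replicate 1, 1468 in EC-Foxc-DKO replicate 1 and 1391 in EC-Foxc-DKO replicate 2. The next cluster, CD4+ T-like cells, held 5.72 ± 8.50 CPM (SD, n = 3), and the ranges did not overlap. A *Cxcr2* UMI was present in 49 of 56 neutrophil-like cells (87.5%, exact interval 75.9 to 94.8, and 67.1% after thinning), in 1 of 295 macrophage-like cells and in 0 of 1377 follicular B-like cells. By mouse, neutrophil-like cells held 97.1%, 90.4% and 92.0% of all *Cxcr2* UMIs where the cluster was present. In control replicate 2 all 348 kept cells held 0 UMIs of *Cxcr2*.

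*Csf3r* was also present in macrophage-like cells. Its level in neutrophil-like cells was 1113, 1566 and 847 CPM in the same 3 mice, with a mean of 1339 ± 321 CPM (SD, n = 2 with 10 or more cells). Macrophage-like cells held 23.6 and 40.9 CPM in the controls and 27.7 and 30.6 CPM in the EC-Foxc-DKO mice, a mean of 30.7 ± 7.38 CPM (SD, n = 4), the smallest SD relative to its mean among the 5 genes tested there. The share of cells with a *Csf3r* UMI was 94.6% in neutrophil-like and 23.4% in macrophage-like cells, and 72.8% and 3.14% after thinning, against 0 of 1377 follicular B-like cells. Macrophage-like cells of both depths held 27.1% of all *Csf3r* UMIs and neutrophil-like cells 70.7%. In control replicate 2 all 14 UMIs of *Csf3r* lay in macrophage-like cells, and in EC-Foxc-DKO replicate 2 their share was 57.6%.

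*S100a8* and *S100a9*, the calprotectin genes, varied widely between mice within neutrophil-like cells. *S100a8* stood at 12771, 30049 and 104385 CPM, and *S100a9* at 24623, 52444 and 131781 CPM, in control replicate 1, EC-Foxc-DKO replicate 1 and EC-Foxc-DKO replicate 2. For both genes the single control mouse was the lowest and the mouse with 6 cells the highest. Medians of *S100a8* over single cells were 10823, 11081 and 100561 CPM in the same order of mice. For *S100a9* they were 12844, 19675 and 130985 CPM. The lowest cell of EC-Foxc-DKO replicate 2 had 5335 CPM of *S100a8*, and the highest cell of control replicate 1 had 36935.

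The summed level of the 16 neutrophil markers, which do not include the 8 genes, moved with the S100 genes: 18093, 30323 and 74992 CPM in the same 3 mice. Markers of enterocytes and erythroid cells were highest in control replicate 1. Those of top enterocytes summed to 37201, 2701 and 363 CPM, those of middle enterocytes to 12739, 1468 and 423 CPM, and those of erythroid cells to 40241, 0 and 0 CPM, the last almost wholly (99.9%) from 1 cell. When cells with at least 1% of their UMIs on these enterocyte and erythroid markers were left out, a step chosen after seeing the data, 21 of the 30 cells of control replicate 1 and all cells of the other 2 mice stayed. In the remaining cells of control replicate 1 *S100a8* was at 13819 and *S100a9* at 27193 CPM, still the lowest of the 3 mice, whereas *Cxcl2* was at 35511 CPM and *Cxcr2* at 1700.5 CPM, the highest of the 3. Under a mitochondrial limit of 20%, EC-Foxc-DKO replicate 2 had 31 neutrophil-like cells, and its *S100a8* and *S100a9* levels were 61996 and 87968 CPM against 12429 and 24345 CPM in the 34 cells of control replicate 1. With likely doublets removed and the cells clustered anew, EC-Foxc-DKO replicate 2 had 2 neutrophil-like cells. Whether its other cells were removed or fell in another cluster was not tested. *S100a8* was at 38038 and *S100a9* at 54565 CPM there, against 30860.3 and 54458 CPM in the other EC-Foxc-DKO mouse and 12996 and 26722 CPM in control replicate 1. For *S100a9* both EC-Foxc-DKO mice were then nearly level.

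Outside neutrophil-like cells *S100a8* and *S100a9* parted. Macrophage-like cells held *S100a8* at 58.3 and 2.92 CPM in the controls and 24.3 and 135 CPM in the EC-Foxc-DKO mice, a mean of 55.2 ± 58.0 CPM (SD, n = 4). A UMI of *S100a8* was present in 96.4% of neutrophil-like cells (92.4% after thinning), 13.2% of macrophage-like cells (3.47%) and 0.290% of follicular B-like cells. In macrophage-like cells *S100a9* was 24 UMIs in control replicate 1, of which 17 lay in 1 cell, and 0, 0 and 1 UMI in the other 3 mice. Of *S100a8* there, 1 cell held 26 of 52 UMIs in control replicate 1. In EC-Foxc-DKO replicates 1 and 2, 1 cell held 15 of 29 and 39 of 84. *S100a9* made up 62.0% of the UMIs of both genes in neutrophil-like cells (exact interval 61.2 to 62.9), and 13.1% in macrophage-like cells (8.65 to 18.7). These intervals take UMIs as independent and do not cover the spread between mice. In the single mice the share in neutrophil-like cells was 65.8%, 63.6% and 55.8%. In macrophage-like cells it was 31.6% in control replicate 1, 0% in EC-Foxc-DKO replicate 1 and 1.18% in EC-Foxc-DKO replicate 2. At the 20% limit, macrophage-like cells of EC-Foxc-DKO replicate 2 held 60 UMIs of *S100a9* and 238 of *S100a8*, so that share depends on the limit.

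In epithelial-like cells *S100a9* outnumbered *S100a8*. Sprr and Gml epithelial-like cells held 255 UMIs of *S100a9* and 44 of *S100a8* in EC-Foxc-DKO replicate 2. *S100a9* made up 85.3% (80.8 to 89.1, again with UMIs taken as independent) in this mouse. The *S100a9* UMIs lay in 25 of its 176 such cells, whereas control replicate 1 had 4 UMIs of *S100a9* in 64 cells and EC-Foxc-DKO replicate 1 had 0 in 33 cells. Bottom enterocyte-like cells of EC-Foxc-DKO replicate 2 held 135 UMIs of *S100a9* and 49 of *S100a8*, and crypt-like cells 53 and 5. In the 25 epithelial cells with *S100a9*, *Cxcr2* had 1 UMI and *Csf3r* had 0. Of the 16 neutrophil markers 10 were seen in them and 6 were at 0, and the leading one was *Mxd1* with 484 UMIs. The 14 markers other than *Mxd1* and *Lcn2* summed to 258 CPM, against 215 CPM in the 151 such cells of this mouse without *S100a9*. *Retnlg* had 6 UMIs in the former and 0 in the latter. The part of neutrophil RNA in these counts was not tested. A tuft-like cell of EC-Foxc-DKO replicate 1 held 135 *Cxcl2*, 36 *S100a8* and 143 *S100a9* UMIs together with 113 UMIs of neutrophil markers, and nearly all tuft-like counts of the 8 genes came from it.

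**Figure D3:**
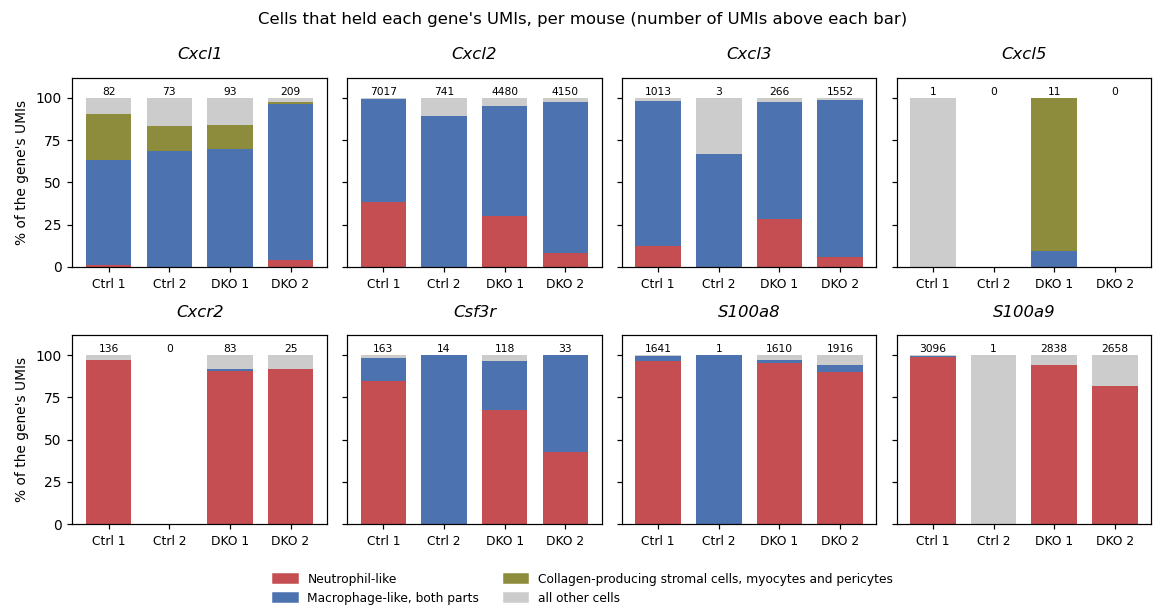
For each gene and mouse, the bar splits the gene's UMIs in kept cells over neutrophil-like cells, macrophage-like cells of both depths, stromal-like cells (collagen-producing cells, myocytes and pericytes) and all other cells, in percent, with the number of UMIs above the bar. *Cxcl1*, *Cxcl2* and *Cxcl3* are mostly macrophage-like, and *Cxcr2*, *S100a8* and *S100a9* mostly neutrophil-like where that cluster is present. Control replicate 2, without neutrophil-like cells, has 0 *Cxcr2* UMIs and 1 UMI of each S100 gene.

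Seen as a supply of transcripts, macrophage-like cells were the larger sender of ligands in every mouse. They held 61.5% and 89.2% of the *Cxcl2* UMIs in the controls, against 65.2% and 89.2% with the deletion, and neutrophil-like cells 38.1%, 0%, 30.2% and 8.43%. Of *Cxcl3* UMIs, macrophage-like cells held 88.0% over all mice and neutrophil-like cells 10.4%. Of *Cxcl1* UMIs macrophage-like cells held 78.8%, stromal-like cells 10.5% and neutrophil-like cells 1.97%. Most of the stromal-like UMIs lay in the few single cells described above. The macrophage share of *Cxcl1* ran from 62.2% in control replicate 1 to 92.8% in EC-Foxc-DKO replicate 2. These shares move with the number of cells that each library recovered of each type, and with the mitochondrial limit. In EC-Foxc-DKO replicate 2, removed barcodes held 5288 *Cxcl2* UMIs, against 4150 in kept cells. At the 20% limit its neutrophil-like cells held 1280 and its macrophage-like cells 5632, against 350 and 3697 at 10%.

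Sender and receiver genes met in the same neutrophil-like cells. Of 56 such cells, 46 (82.1%, exact interval 69.6 to 91.1) held UMIs of both *Cxcl2* and its receptor gene *Cxcr2*, in 23 of 30, 17 of 20 and 6 of 6 cells of the 3 mice. In macrophage-like cells the pair was seen in 1 of 295 cells (0.339%). *Csf3r* and *Cxcr2* were found together in 47 neutrophil-like cells (83.9%), and *S100a8* with *S100a9* in 53 (94.6%). All 20 neutrophil-like cells with *Cxcl3* also held *Cxcl2*. In macrophage-like cells 87 of the 91 cells with *Cxcl3* and all 46 cells with *Cxcl1* held *Cxcl2* as well. By mouse, the *Cxcl2* and *Cxcl3* pair was seen in 32.4% and 2.78% of macrophage-like cells in the controls and in 11.8% and 54.7% in the EC-Foxc-DKO mice.

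Within the macrophage-like cells the levels of the 3 ligands differed between states. The cells were clustered again, without the 8 genes, into 5 states named here by their leading genes. State 1, led by the monocyte genes *Ly6c2* and *Ccr2*, held 109 cells, and over all mice *Cxcl2* was at 3008, *Cxcl3* at 103 and *Cxcl1* at 18.1 CPM. State 3, led by *Lyve1* and *Vcam1*, genes of resident macrophages, held 55 cells with *Cxcl2* at 2516, *Cxcl1* at 246 and *Cxcl3* at 4.20 CPM. By mouse, state 1 held *Cxcl3* at 157 and 0 CPM in the controls and at 0 and 543 CPM with the deletion. State 3 held *Cxcl1* at 194 CPM in control replicate 2 (29 cells), 206 in EC-Foxc-DKO replicate 1 and 628 in EC-Foxc-DKO replicate 2, where its *Cxcl3* was at 0, 0 and 34.9 CPM. In control replicate 2, 35 of the 50 *Cxcl1* UMIs of state 3 lay in 1 cell. Of the 3 mice with more than 1 such cell, each thus had more *Cxcl1* than *Cxcl3* in state 3.

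State 2, led by *Ppbp*, itself a CXCR2 ligand gene, and *Ednrb*, held 62 cells with *Cxcl3* at 1613 CPM, from 2399 CPM in 22 cells and 46.3 CPM in 3 cells of the controls to 383 CPM in 27 cells and 6159.8 CPM in 10 cells of the EC-Foxc-DKO mice. State 4, led by *Il6* and *Ramp3*, held 51 cells, 49 of them from EC-Foxc-DKO replicate 2, with *Cxcl2* at 6211 and *Cxcl3* at 1888 CPM. State 5, led by *Marco* and *Gpnmb*, held 18 cells with *Cxcl1* at 372, *Cxcl2* at 4689.6 and *Cxcl3* at 2159 CPM. Of these cells 13 came from EC-Foxc-DKO replicate 2, where *Cxcl1* in state 5 was at 445 CPM, below 611 CPM in state 2 and 628 CPM in state 3. *Cxcl2* differed little between states next to *Cxcl3*.

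The mice differed in their make-up of states. State 1 took 60.6% and 11.1% of macrophage-like cells in the controls, against 52.7% and 13.7% with the deletion, and state 3 took 1.41%, 80.6%, 16.1% and 10.5%. The low *Cxcl3* of control replicate 2 stood beside its 80.6% of state 3, and the high *Cxcl3* of EC-Foxc-DKO replicate 2 beside its 51.6% of state 4. Within state 2, found in all 4 mice, EC-Foxc-DKO replicate 2 still had the highest *Cxcl3* and control replicate 2 the lowest, the latter from 2 UMIs. State 4, being nearly all of 1 library, cannot be told apart from that library.

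**Figure D4:**
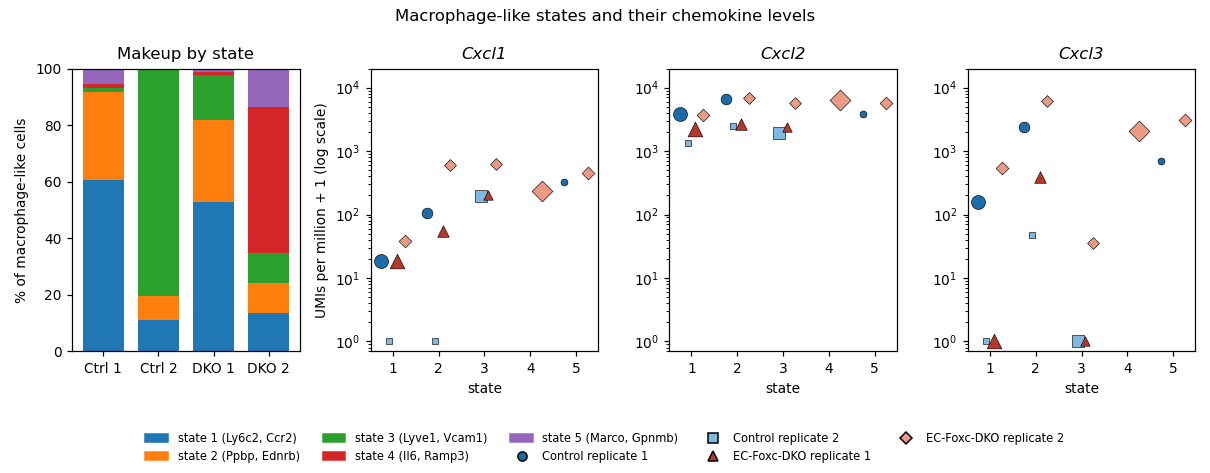
Left, the share of each mouse's macrophage-like cells in the 5 states. The other panels give *Cxcl1*, *Cxcl2* and *Cxcl3* as CPM + 1 on a log axis by state, with 1 point per mouse of at least 3 cells that grows with its number of cells. *Cxcl2* stays between 1340.3 and 6783 CPM wherever a mouse had at least 3 cells of a state, while *Cxcl3* runs from 0 to 6159.8 CPM.

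The question of the design was whether endothelial loss of *Foxc1* and *Foxc2* changed expression after I/R. For the 8 genes no difference between genotypes passed the test, in all kept cells or in any cell type. With 2 mice per group, the intervals were wide. Summed over all kept cells, 7 of the 8 genes were tested (not *Cxcl5*), and 0 of the 7 were called with edgeR's quasi-likelihood test, where 0% of 14916 genes were called. At an unadjusted p under 0.05 there were 54 genes, none of the 8, and DESeq2 called 7 genes, none of the 8. In such sums, fewer cells of a type and less RNA per cell cannot be told apart.

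In all kept cells, *Cxcl2* stood at 230.2 and 189 CPM in the controls and 157 and 179 CPM in the EC-Foxc-DKO mice, so both EC-Foxc-DKO mice were lower. Its log2 fold change, EC-Foxc-DKO over control, was -0.30 (SE 0.46, 95% interval -1.45 to 0.86, edgeR adjusted p = 0.9999). *Cxcl3* was at 33.2, 0.766, 9.34 and 67.1 CPM in the usual order, a log2 fold change of 1.03 (SE 1.63, interval -3.07 to 5.13). *S100a8* and *S100a9* were at 0.255 CPM in control replicate 2, 1 UMI each, and between 53.8 and 115 CPM in the other 3 mice. Their log2 fold changes were 1.19 (SE 1.65) and 0.89 (SE 1.77). The remaining values were -0.51 for *Cxcl1* (SE 0.96), -0.45 for *Cxcr2* (SE 1.56) and -0.74 for *Csf3r* (SE 0.78). At a mitochondrial limit of 20% the signs of *Cxcl1*, *Cxcl2*, *Cxcr2* and *Csf3r* turned, to 0.11, 0.32, 0.48 and 0.11, so no direction is given for them.

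In macrophage-like cells 5 of the 8 genes were tested and 0 called, where 0% of 6852 genes were called by edgeR. There 154 genes had an unadjusted p under 0.05, none of the 8, and DESeq2 called 0. The log2 fold changes were 0.85 for *Cxcl1* (SE 0.77, interval -0.92 to 2.61), 0.28 for *Cxcl2* (SE 0.55, interval -0.97 to 1.54) and 1.28 for *Cxcl3* (SE 1.52, interval -2.20 to 4.75). *Csf3r* gave -0.11 (SE 0.44) and *S100a8* 1.07 (SE 0.93), all with an edgeR adjusted p of 0.999878. The *Csf3r* interval, -1.12 to 0.90, was the narrowest. Leaving out control replicate 1, and with it the control mouse of high *Cxcl3*, gave 7.67 for *Cxcl3* and 4.62 for *S100a8*. Leaving out control replicate 2 gave 1.62 for *Cxcl1* and -5.30 for *S100a9*, which was not tested with all mice. That *S100a9* value rested on 24 UMIs of control replicate 1, 17 of them in 1 cell. With 1 control mouse left, these values hang on which control mouse is kept.

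In neutrophil-like cells a fit was possible with the 3 mice of 5 or more cells, a rule added after seeing the data, in which the lone control mouse is assumed to vary like the EC-Foxc-DKO mice. Of the 8 genes 6 were tested and 0 called by edgeR, where 5.01% of 979 genes were called. None of the 6 had an unadjusted p under 0.05, against 84 of all genes, and DESeq2 called 17 genes, none of the 8. *Cxcl2* (0.12, SE 1.25), *Cxcr2* (0.41, SE 0.73) and *Csf3r* (0.08, SE 0.70) lay near 0. *Cxcl3* gave 1.93 (SE 0.99, interval -0.07 to 3.93, edgeR adjusted p = 0.650), *S100a8* 2.52 (SE 1.68, interval -0.89 to 5.92) and *S100a9* 2.00 (SE 1.72, interval -1.48 to 5.48). The 47 genes lower in EC-Foxc-DKO mice (4.8%) had the haemoglobin genes *Hbb-bt*, *Hba-a2*, *Hba-a1* and *Hbb-bs* at the 4 lowest p and the epithelial gene *Epcam* next, named after their values were seen. The higher genes, named after their values were seen, were *Olfm4* (5.91, SE 1.16) and *Mmp8*. *Olfm4* was also a leading gene of the crypt-like cells, and the part of crypt RNA in its value was not tested.

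In Sprr and Gml epithelial-like cells, with 1 control mouse, again assumed to vary like the 2 EC-Foxc-DKO mice, 3 of the 8 genes were tested and 0 called, where 0.0474% of 8436 genes were called by edgeR. The 4 called genes, named after their values were seen, were *Psca*, *Ly6a* and *Hilpda* (higher, 0.0356%) and *Ifit1bl1* (lower, 0.0119%), and 0 genes were called at clustering resolution 1.0, without likely doublets or without shared barcodes. With 1 control mouse, a gene could pass the filter on low counts through a single mouse. The 3 genes passed it through EC-Foxc-DKO replicate 2, where they were high. *S100a9* gave 4.57 (SE 1.29), *S100a8* 4.08 (SE 1.50) and *Cxcl2* 3.38 (SE 1.51). The levels show that a single mouse carried these values: *S100a9* was at 1.39 CPM in control replicate 1, 0 in EC-Foxc-DKO replicate 1 and 55.2 in EC-Foxc-DKO replicate 2. In tuft-like cells 3 genes were tested and 0 called by edgeR, where 0% of 6406 genes were called (76 at an unadjusted p under 0.05, 0 by DESeq2), and their values rested on the 1 cell described above. With mice of 5 or more cells, 3 further types each had 1 member tested and 0 called by edgeR. *Cxcl1* in myocyte- and pericyte-like cells gave -4.72 (SE 2.26, edgeR adjusted p = 0.308), beside the 1 control cell that held 22 UMIs, where 2.29% of 1574 genes were called (1.08% higher, 1.21% lower). *Cxcl2* in plasma cell-like cells gave 4.73 (SE 1.21, edgeR adjusted p = 0.447), and *S100a9* in plasmacytoid dendritic cell-like cells 7.14 (SE 4.47, edgeR adjusted p = 0.991), where 0% of genes were called in both. All 20 *S100a9* UMIs of the plasmacytoid dendritic cell-like cells lay in 1 of the 7 such cells of EC-Foxc-DKO replicate 2. That fit had 1 control mouse, and the myocyte- and pericyte-like fit had 1 EC-Foxc-DKO mouse. In the other 10 cell types tested, BEC-like cells among them, none of the 8 genes passed the filter on low counts.

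**Figure D5:**
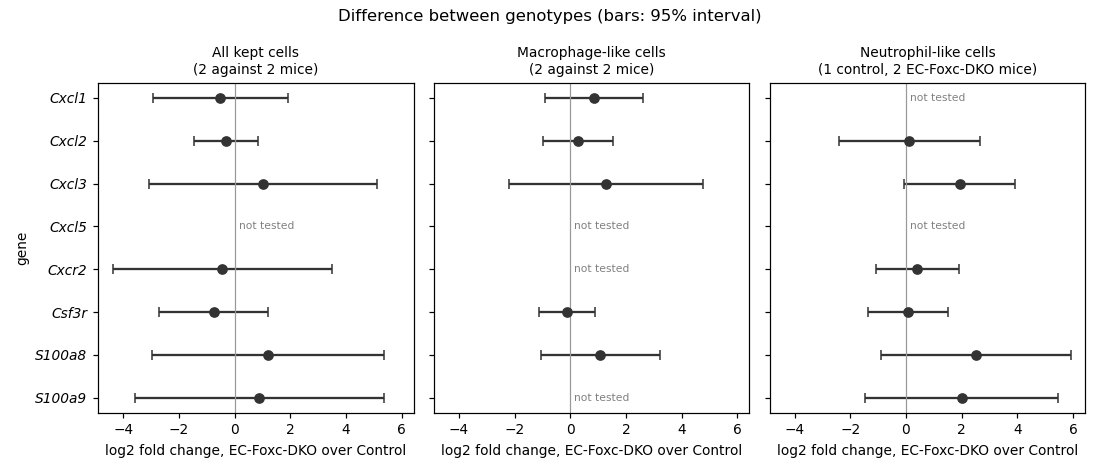
Log2 fold changes of the 8 genes, EC-Foxc-DKO over control, with 95% intervals, from edgeR fits on UMIs summed per mouse in all kept cells, macrophage-like cells and neutrophil-like cells. Every interval includes 0, and the widest, that of *S100a9* in all kept cells, spans -3.58 to 5.36.

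Genes around the 8 in the same pathway were counted from 6 lists. In all kept cells and in macrophage-like cells 0 genes of any list were called by edgeR, where the background is 0% in both. Inducers and growth factors had 9 of 12 members tested in all kept cells, with a median log2 fold change of 0.29 beside -0.08 over all genes tested. *Il1b*, which raises these chemokines, gave -0.57 (SE 0.46) there and -0.10 (SE 0.52) in macrophage-like cells. The other neutrophil chemokines and scavengers, 4 of 7 tested, had a median of -0.78, with *Pf4* at -0.36 (SE 0.45). The other receptors of neutrophil attractants, 9 of 10 tested, had a median of -0.24. Among them *Cxcr4*, the CXCL12 receptor and most abundant of the list, gave 1.31 (SE 0.84), and *C5ar1*, the C5a receptor, gave -0.86 (SE 0.52). Granule and effector genes had 9 of 15 tested and a median of 0.61. *Lcn2* gave 3.34 (SE 1.66), the more abundant *S100a11* 1.07 (SE 0.59), *Cybb* -0.005 (SE 0.71) and *Ncf1* 0.004 (SE 0.76). The *Lcn2* value is not one of neutrophil-like cells, which held 377 of its UMIs in all. In EC-Foxc-DKO replicate 2, bottom enterocyte-like cells without *S100a9* held 4614 *Lcn2* UMIs and such crypt-like cells 2220. In EC-Foxc-DKO replicate 1 the same groups held 61 and 56. Vessel arrest genes, 12 of 13 tested, had a median of -0.36, with *Icam1*, the endothelial ligand of leukocyte integrins, at -1.06 (SE 1.19). The more abundant *F11r*, *Selplg* and *Itgam* gave -0.12 (SE 0.59), -0.45 (SE 0.83) and -0.20 (SE 0.37).

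The NF-kB and mRNA decay feedback genes, all 10 tested, had a median of -0.50 in all kept cells and -0.26 in macrophage-like cells, beside 0.00 over all genes tested there. In macrophage-like cells *Zfp36*, which destabilizes chemokine mRNAs, gave -0.90 (SE 0.45), and *Socs3*, a feedback inhibitor of cytokine receptors, -1.79 (SE 0.70), neither called. In neutrophil-like cells 1 gene of the lists was called, *Mmp8*, the neutrophil collagenase, at 4.12 (SE 1.15, edgeR adjusted p = 0.0197). Its level was 56.4 CPM in control replicate 1 and 39.2 and 1996 CPM in the EC-Foxc-DKO mice, so the call rested on the mouse with 6 cells. It was lost at the 20% limit (edgeR adjusted p = 0.829), with RLE size factors (edgeR adjusted p = 0.997), with DESeq2 (adjusted p = 0.243) and without the filter (edgeR adjusted p = 0.0822). The other receptors there, 8 of 10 tested, had a median of 0.38, and the 6 granule genes tested a median of 1.46, beside 0.01 over all genes tested.

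Over 70 pairs of a cell type and a mouse with at least 10 cells (26 types), the pattern of each gene was set beside that of all others by Pearson's r of log2(CPM + 10), as a description, since pairs of a library share its depth. Nearest to *Cxcl2* were *Il1b* (0.950), *Cd14* (0.942) and *Nlrp3* (0.940), genes of activated myeloid cells. Nearest to *Cxcl3* were *F10* (0.924) and *Chil3* (0.916), and to *Cxcl1* *Dse* (0.814). *Cxcr2* was nearest to *Stfa2l1* (0.985), *Csf3r* to *Hcar2* (0.969), *S100a8* to *Wfdc21* (0.966) and *S100a9* to *Cxcr2* (0.944). Of the 70 pairs, 2 were neutrophil-like. These genes were highest there, so their values rest largely on those 2 pairs. *Cxcl5*, at a mean of 0.480 CPM, was nearest to *Ereg* (0.705), a value set by few UMIs.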

How the data were processed

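The deposited files hold raw UMI counts per gene and barcode, which the authors made with Cell Ranger 4.0.0 on mm10 (GRCm38), as their processing notes name them, 1 matrix per mouse from 10x Genomics 3′ libraries of dissociated distal jejunum. Depth was 3918909 to 30487782 kept UMIs per mouse. A joined table of all libraries served only for the 18407 genes over which the mitochondrial share was taken. Groups and replicates came from the sample labels. The members and all gene lists were chosen with earlier results of these data known.

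Barcodes with at most 10% mitochondrial UMIs were kept. Counts were scaled to 10000 per cell and log-transformed, 2688 variable genes without the 8 members gave 15 principal components and 15 neighbors, and Leiden clustering was run at resolution 0.5 (scanpy 1.11.5, leidenalg 0.10.2, Python 3.11.15). Cluster names were rebuilt from marker lists, at least 3 markers detected at 2 times the level of the other cells and in 10% of cells, with these thresholds set after the clusters were seen, so they may differ from the study's own names. Scrublet called 16 cells (0.285%), too few to have worked, so doublets were kept and 292 top-scoring cells (5.20%) were removed in an alternative.

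For each mouse, the UMIs of a cell type were added up and given as counts per 1000000 (CPM), with means over mice with 10 or more cells. Genotypes were compared on these sums with edgeR 4.0.16 (R 4.3.3; quasi-likelihood test, TMM scaling, filterByExpr), Benjamini-Hochberg adjusted over all genes of a fit at 0.05, where at least 3 mice had 10 cells. The study tested cells, whereas the mouse is the replicate here. Tests were two-sided, and intervals are 95%. The fit was checked on counts simulated for all kept cells and macrophage-like cells, with the same spread for every gene. That check does not cover genes that vary between mice as widely as *Cxcl3* did. DESeq2 1.42.0 was an alternative, as were a 20% limit, other scaling, no filter, other clustering, removal of shared barcodes, a replicate block and leaving out each mouse. Shares have exact (Clopper-Pearson) intervals, and 3 counts set the limit for a count of 0. Named genes were the 8 members, the called or otherwise most abundant genes of each pathway list, the 3 genes most like each member, leading genes of clusters, and *Foxc1*, *Foxc2* and Cre. Some genes that this rule names are not reported here.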

Additional observations from a re-analysis of the deposited data

Results flagged for a closer look

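The barcodes above the mitochondrial limit of 10% entered no main comparison, but some of them entered the alternative with a higher limit. The summed UMIs of all barcodes above 10% held several of the 8 genes above the highest level in such barcodes of the control mice. In EC-Foxc-DKO replicate 2, *Cxcl1* stood at 8.65 CPM (highest control 2.49), *Cxcl2* at 339 CPM (50.0) and *Cxcl3* at 89.7 CPM (1.59). In the same mouse *Cxcr2* stood at 10.7 CPM (1.37), *Csf3r* at 13.7 CPM (2.41), *S100a8* at 249.9 CPM (4.47) and *S100a9* at 384 CPM (7.19). *Cxcl5* was at 0.449 CPM there and at 0.110 CPM in EC-Foxc-DKO replicate 1, with 0 UMIs in the controls. EC-Foxc-DKO replicate 1 also held *S100a8* at 7.41 CPM and *S100a9* at 12.7 CPM, above the same control values. Only values above the controls were searched for. In the other direction, EC-Foxc-DKO replicate 1 lay below both controls for *Cxcl1* (0.386 CPM, lowest control 0.722), *Cxcl2* (6.50 CPM, 14.8) and *Csf3r* (0.936 CPM, 1.03). For these genes the high values were those of EC-Foxc-DKO replicate 2 alone. These differences have no test, and how many of all genes lay above both controls in such barcodes was not counted.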

How the results depend on the processing

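No difference between genotypes in the 8 genes was called with all mice and the filter on low counts in place. Alternatives were counted in all kept cells and in macrophage-like, neutrophil-like, Sprr and Gml epithelial-like and tuft-like cells, not in other types. Of 277 such log2 fold changes with a main value to set beside, 250 kept direction and call, 21 changed sign and 6 became called. Over all 294 counted, with those of genes tested in the alternative alone, 8 were called. Of these, 4 came on leaving out a control mouse in macrophage-like cells and 4 without the filter on low counts. At the 20% limit, values in all kept cells were 0.11 for *Cxcl1*, 0.32 for *Cxcl2*, 0.48 for *Cxcr2* and 0.11 for *Csf3r*, and *Csf3r* in macrophage-like cells was 0.088. Without the filter on low counts, *Cxcl2* and *Csf3r* in neutrophil-like cells were -0.17 and -0.16. Leaving out 1 mouse at a time, values in all kept cells ran from -1.54 to 1.09 for *Cxcl1*, -0.58 to 0.14 for *Cxcl2*, -1.14 to 5.996 for *Cxcl3*, -1.33 to 8.21 for *Cxcr2* and -0.050 to 8.98 for *S100a9*. In macrophage-like cells they ran from -0.87 to 1.64 for *Cxcl1*, -0.51 to 1.12 for *Cxcl2*, -1.84 to 7.67 for *Cxcl3*, -0.51 to 0.26 for *Csf3r* and -0.56 to 4.62 for *S100a8*. The number of genes called there ran from 9 to 430, the 430 without control replicate 1.

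The labels share only a replicate number across genotypes. Same-numbered mice deviated with r = -0.50 in all kept cells and -0.23 in macrophage-like cells. The replicate block called 0 genes in both fits and gave 0.95 for *Cxcr2* in all kept cells.

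Counts of called genes in all kept cells were 7 with DESeq2 and 14 without the filter, and 48 without it in macrophage-like cells. In neutrophil-like cells they were 13 at the 20% limit, 0 with RLE size factors and 17 with DESeq2. In Sprr and Gml epithelial-like cells they were 36 at the 20% limit, 2 with the members among the variable genes, with RLE or with DESeq2, 0 at resolution 1.0, without doublets or without shared barcodes, and 64 without the filter, where *S100a9* was called (4.56, edgeR adjusted p = 3.96e-09). In tuft-like cells 19 were called without the filter, among them *Cxcl2* (4.70, edgeR adjusted p = 0.00412) and *S100a9* (8.85, edgeR adjusted p = 2.20e-05). *S100a9* was also called without it in macrophage-like cells (-4.47, edgeR adjusted p = 0.0126). Of its 25 UMIs there, 24 lay in control replicate 1, 17 of them in 1 cell. Of the *S100a9* UMIs in Sprr and Gml epithelial-like cells, 255 of 259 lay in EC-Foxc-DKO replicate 2. In tuft-like cells, 1 cell held all 143 *S100a9* and 135 of 138 *Cxcl2* UMIs. The Sprr and Gml and the tuft-like fits each had 1 control mouse. Their adjusted p values therefore cannot show a difference between genotypes.

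Of 146 alternative levels, 135 moved by less than 1 SD between mice. This count cannot show that the levels are firm, since leaving out 1 mouse cannot move a mean by that much. For *Cxcl3* in macrophage-like cells the SD (1054 CPM) exceeded the mean (857 CPM), so even a complete loss would have counted as unmoved. Of 13 thinned shares of cells with a UMI, 9 moved beyond their interval, all downwards. In the cell types counted above, 19 of 57 counts of called genes moved by over 1.5 times. *Cxcl1* in stromal-like cells was 29.6 CPM at the 20% limit and 27.8 as a mean over cells or thinned. In neutrophil-like cells *Cxcl3* was 2357 and *S100a8* 34359.5 CPM at the 20% limit. *Cxcl2* was 30999 and *Cxcr2* 1584 CPM without cells rich in other markers. Without doublets *Cxcr2* was 1558 and *Csf3r* 1674 CPM, and *Csf3r* was 1668 CPM as a mean over cells or thinned. The cause of these shifts was not tested.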
